A study of Mus musculus with 24 samples.

Results

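The growth hormone and insulin-like growth factor (IGF) axis was followed through 10 genes, taken by gene symbol from the count table: Igf1, Igfals, Ghr, Socs2, Cish, Stat5b, Igfbp1, Igfbp2, Igfbp3 and Igfbp4. They are 10 of the 24421 genes in the table, and all 10 were among the 13833 genes tested. RNA came from the medial liver lobe of C57BL/6 mice. Each mouse had received either vehicle (0.1% ethanol) or MitoCDNB at 5 mg/kg, and the liver was sampled 1 h or 4 h later. This gave 4 groups of 6 libraries, 1 group for each injection and time. MitoCDNB is a chlorodinitrobenzene joined to a triphenylphosphonium cation, which draws it into mitochondria, where it was designed to act on glutathione and the thioredoxin system. No group carried a genetic change, uninjected mice were not analysed here, and the sources used here give neither the age nor the sex of the mice.

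Growth hormone is released from the pituitary in pulses and binds its receptor GHR on hepatocytes. The receptor-bound kinase JAK2 then phosphorylates STAT5, which enters the nucleus and raises transcription of Igf1, Igfals and the feedback inhibitors Socs2 and Cish. The liver supplies most of the IGF1 in blood, where binding proteins hold it. Insulin represses the gene of the binding protein IGFBP1, and fasting or cell stress raises it within hours.

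Each library held between 25.1 and 37.2 M counts. The tissue label was checked against 14 hepatocyte markers, all of which were detected and whose summed level was 58900 to 88100 CPM in every library. Levels are given in CPM, counts scaled to a common library size, after trimmed mean of M values (TMM) scaling. On the second principal component, which held 9.97% of the variance, vehicle replicate 1 at 4 h (-29.2) and MitoCDNB replicate 2 at 4 h (-38.4) stood apart from the other 22 libraries (-14.3 to 24.1). For this reason the fits at 4 h were repeated without both libraries. In MitoCDNB replicate 2 at 4 h, 7 of the 10 genes took the highest or lowest value of their group. In MitoCDNB replicate 5 at 1 h, which did not stand apart, 6 did. Leaving out a library that holds such a value shifts the result of that gene by construction. The 1 h libraries of replicates 4 to 6 held the neuronal transcript Snap25 at 0.446 to 1.15 CPM, in both treatments. Snap25 had no count in the 1 h libraries of replicates 1 to 3 or at 4 h, so 1 h comparisons were repeated within each set of replicates. Library numbers 1 to 12 were the 4 h samples and 13 to 24 the 1 h samples, so time and library order cannot be told apart. In these bulk samples fewer cells of a type and less RNA per cell cannot be told apart either.

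Between MitoCDNB and vehicle no gene of the axis passed the edgeR test without a block at either time, with Igfbp1 at 1 h the widest apart. Between the times 4 genes passed in at least 1 treatment. With the replicate number fitted as a block, Igfbp1 and Stat5b passed at 1 h (edgeR adjusted p = 0.0163 and 0.0331), among 835 genes called in that fit. Without the block, 0 of 10 were called at 1 h, against 6.57% of all genes tested (edgeR quasi-likelihood test, adjusted p under 0.05 over all 13833 genes). Their median log2 fold change was 0.23, beside 0.00 for all genes, and 3 of 10 had an unadjusted p under 0.05, as did 17.7% of all genes. DESeq2 called 1 of the 10, Stat5b, and limma-voom, run with sample quality weights, called 2, Stat5b and Igfbp1. At 4 h 0 of 10 were called, against 0.824% of all genes, with a median log2 fold change of 0.17 and 1 gene at an unadjusted p under 0.05 (14.3% of all genes). DESeq2 called 1 of the 10 there, Igfbp3, and limma-voom 0. For the difference between the MitoCDNB effects at 4 h and 1 h, 0 of 10 were called, against 4.07% of all genes, and 2 had an unadjusted p under 0.05. There DESeq2 called 0 and limma-voom 1, Igfbp1. DESeq2 gave Igfbp1 no adjusted p in any comparison, so its counts cover the other genes only. Between vehicle at 4 h and vehicle at 1 h, 2 of 10 were called, Stat5b lower and Igfbp4 higher, against 5.44% of all genes. MitoCDNB at 4 h was also compared with MitoCDNB at 1 h, a comparison added after the values were seen. There 4 of 10 were called, against 28.5% of all genes: Ghr, Stat5b and Igfbp1 were lower and Igfbp4 was higher at 4 h. These comparisons share groups with one another, so their results are not independent.

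**Figure D1:**
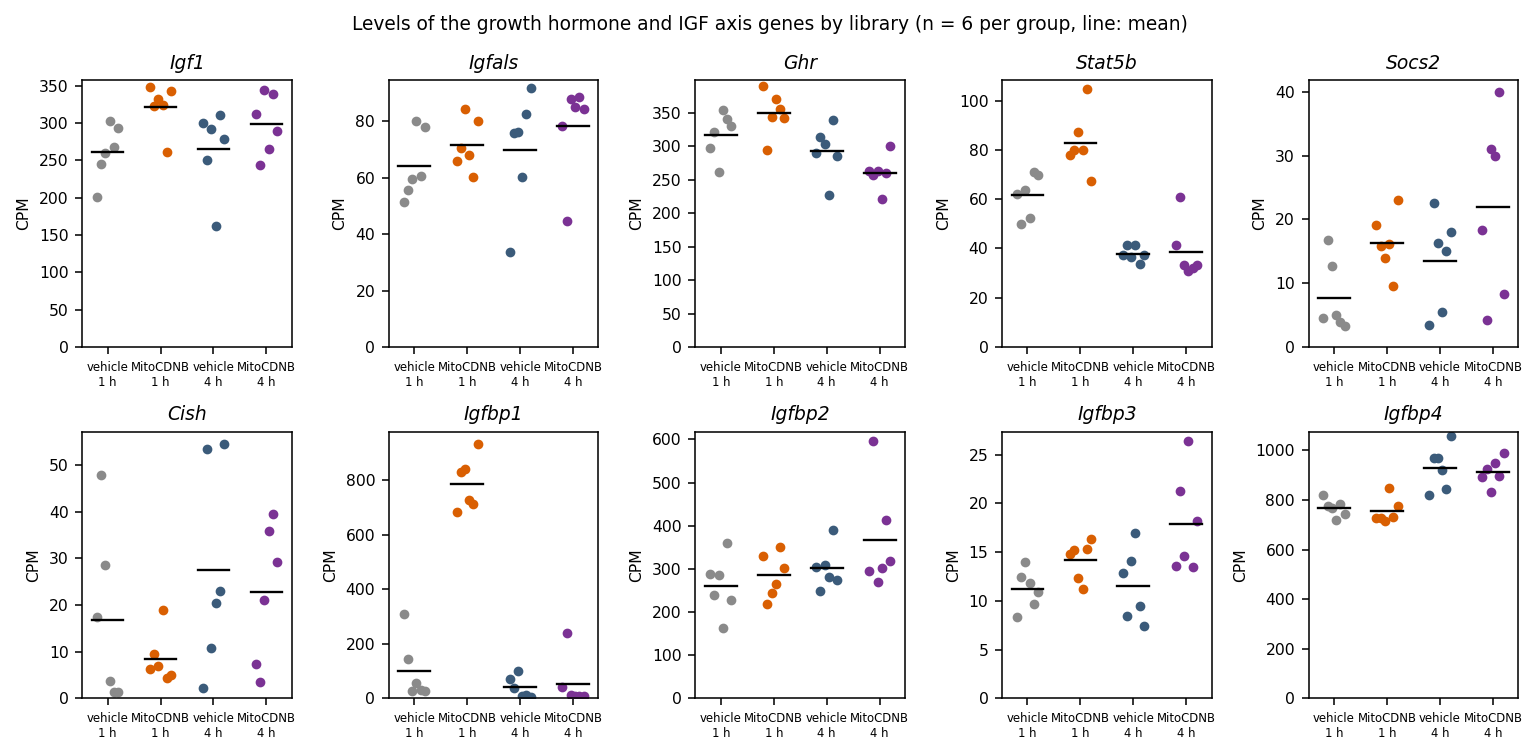
Level in CPM (vertical axis, linear from 0) of each gene in each of the 24 libraries, by group; points are libraries and the line is the mean of 6. All 6 MitoCDNB libraries at 1 h lay above every vehicle library for Igfbp1 (685.4 to 932.8 against 25.98 to 308.5 CPM), and all 4 h vehicle libraries lay below the 1 h vehicle libraries for Stat5b. Groups did not overlap for 4.74% of all genes in the first comparison and for 2.5% in the second.

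**Figure D2:**
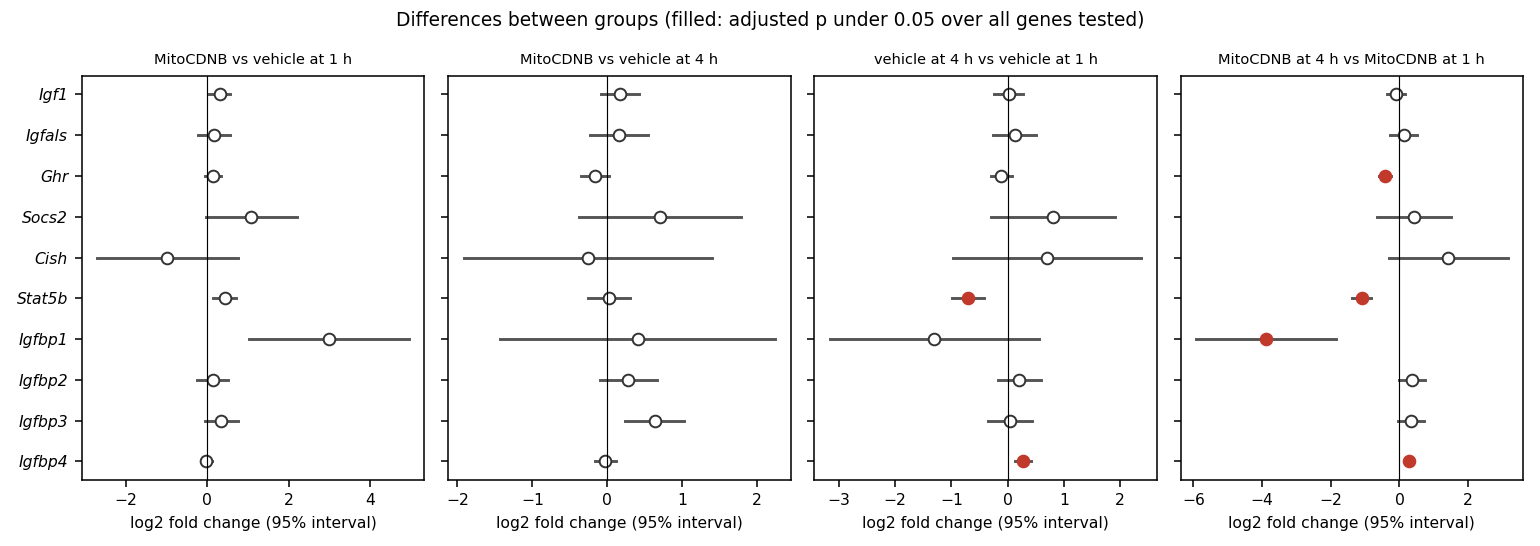
Log2 fold change (horizontal axis, with its 95% interval from the edgeR fit) of each gene in 4 comparisons; filled points passed the adjusted p threshold. The horizontal scale differs between panels. No point is filled in the 2 treatment panels, while Stat5b and Igfbp4 are filled in the vehicle panel and Ghr, Stat5b, Igfbp1 and Igfbp4 in the MitoCDNB panel.

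Ghr encodes the growth hormone receptor and lies on chromosome 15 (chr15:3317760-3583492, minus strand, mm10). Its level in vehicle at 1 h ran from 261.3 to 353.9 CPM with a median of 325.8, and with MitoCDNB at 1 h from 294.9 to 390.2 with a median of 349.6. At 4 h vehicle ran from 226.7 to 339.7 (median 296.4) and MitoCDNB from 220.9 to 299.8 CPM (median 261.4). The ranges overlapped at both times, with the MitoCDNB mean above vehicle at 1 h and below it at 4 h. Neither treatment difference passed the edgeR test, with a log2 fold change of 0.14 (SE 0.09, adjusted p = 0.481) at 1 h and -0.17 (SE 0.09, adjusted p = 0.408) at 4 h, where it was -0.17 also without the libraries that stood apart (adjusted p = 0.476). The difference between the 2 effects was -0.31 on the log2 scale (SE 0.13, edgeR adjusted p = 0.198). Within the MitoCDNB groups, Ghr fell by 0.42 on the log2 scale from 1 h to 4 h (SE 0.09, edgeR adjusted p = 0.000952), and 5 of 6 libraries at 4 h lay below the lowest at 1 h. The fall was 0.42 also without the libraries that stood apart (log2 fold change -0.42, adjusted p = 0.00216).

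Stat5b encodes the transcription factor that carries most of the growth hormone signal in liver (chr11:100780731-100850724, minus strand, mm10). Its level in vehicle at 1 h ran from 50.02 to 71.1 CPM (median 62.93), and with MitoCDNB at 1 h from 67.6 to 104.6 CPM (median 80.01). At 4 h vehicle ran from 33.71 to 41.61 CPM (median 37.4) and MitoCDNB from 30.74 to 60.98 (median 33.38). At 1 h 5 of 6 MitoCDNB libraries were above the highest vehicle library, and at 4 h 4 of 6 MitoCDNB libraries were below the lowest vehicle library and 1 was above the highest. The 1 h difference, a log2 fold change of 0.43 (SE 0.14, 95% interval 0.15 to 0.71), missed the threshold in the edgeR fit (adjusted p = 0.06). It passed with DESeq2 (adjusted p = 0.0326), with limma-voom (adjusted p = 0.0167), when only the 1 h groups were fitted (adjusted p = 0.0223) and without MitoCDNB replicate 6 (adjusted p = 0.0434). It also passed with edgeR when the replicate number was fitted as a block, a pairing that the labels do not name (adjusted p = 0.0331). Replicates 1 to 3 at 1 h alone gave a log2 fold change of 0.48 (adjusted p = 0.276), and replicates 4 to 6 gave 0.38 (adjusted p = 0.521). At 4 h the log2 fold change was 0.02 (SE 0.14, edgeR adjusted p = 0.964), and -0.16 without the libraries that stood apart (adjusted p = 0.566).

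Stat5b was lower at 4 h than at 1 h in both treatments. In vehicle mice Stat5b fell by 0.70 on the log2 scale from 1 h to 4 h (SE 0.14, edgeR adjusted p = 0.00435), from 61.6 ± 8.75 to 38.0 ± 3.0 CPM (SD, n = 6), with no overlap between the groups. Groups without overlap were found for 2.5% of all genes in this comparison. With the 1 h replicates 1 to 3 alone the log2 fold change was -0.63 and missed the threshold (adjusted p = 0.0631). In MitoCDNB mice it fell by 1.10 (SE 0.14, edgeR adjusted p = 2.52e-06), again with no overlap, as for 13.1% of all genes. The MitoCDNB effects at 4 h and 1 h differed by a log2 value of -0.41 (SE 0.19, edgeR adjusted p = 0.288). Without both libraries that stood apart the log2 fold change over time was -0.69 in vehicle mice (adjusted p = 0.000388) and -1.28 in MitoCDNB mice (adjusted p = 7.44e-09). MitoCDNB replicate 2 at 4 h held the highest level of its group, 60.98 CPM. Without it the difference between the 2 MitoCDNB effects was -0.58 and passed (edgeR adjusted p = 0.0162). Leaving out the highest library of that group widens this difference by construction. The close relative Stat5a, which lies beside Stat5b, had a log2 fold change of 0.37 at 1 h (SE 0.15, edgeR adjusted p = 0.188) and 0.18 between the vehicle groups (SE 0.15, edgeR adjusted p = 0.570).

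Socs2 and Cish encode SOCS-family inhibitors that STAT5 induces and that damp the receptor. To show the letters that STAT5 is known to read, the windows of 250 bases before to 50 after each transcript start in RefSeq (GRCm38.p6) were searched on both strands for TTCNNNGAA. Of the 10 genes, 9 had windows there, 14 in all, and Socs2 had none. The motif was in 3 of the 14 windows and in 8.3% of all 32851 windows, and the matches were in Cish and Igfals. The Cish stretch of 30 bases at chr9:107296654-107296683 (plus strand, from 5 bases before the transcript start) held a pair of copies, in capitals:
Cish: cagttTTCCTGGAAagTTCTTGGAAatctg
A match describes the letters only and was not tested as a binding site.

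Socs2 (chr10:95385362-95417180, minus strand, mm10) had a low level that differed widely between mice. It ran from 3.261 to 16.71 CPM in vehicle at 1 h (median 4.763) and from 9.521 to 23.09 with MitoCDNB at 1 h (median 16.04). At 4 h it ran from 3.482 to 22.58 CPM in vehicle (median 15.68) and from 4.172 to 39.97 with MitoCDNB (median 24.17). All 6 MitoCDNB libraries at 1 h were above the vehicle mean of 7.69 CPM, but the ranges overlapped, and vehicle replicates 2 and 3, at 16.71 and 12.68 CPM, lay above the other 4 vehicle libraries. Socs2 had a log2 fold change at 1 h of 1.08 (SE 0.53, edgeR adjusted p = 0.298), and at 4 h of 0.70 (SE 0.52, edgeR adjusted p = 0.594), or 0.72 without the libraries that stood apart (adjusted p = 0.519). In the 1 h replicates 1 to 3 alone it was 0.53 (adjusted p = 0.853), against 2.0 in replicates 4 to 6 (adjusted p = 0.291). Neither comparison over time passed.

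Cish (chr9:107296026-107302784, plus strand, mm10) varied most of all in the vehicle mice, apart from Igfbp1. At 1 h vehicle ran from 1.352 to 47.84 CPM (median 10.61) and MitoCDNB from 4.394 to 19.02 (median 6.623). At 4 h vehicle ran from 2.193 to 54.51 CPM (median 21.76) and MitoCDNB from 3.466 to 39.47 (median 25.24). Every MitoCDNB library lay inside the vehicle range of its time. The fitted log2 fold change was -0.98 at 1 h (SE 0.83, edgeR adjusted p = 0.631), whereas the difference of the mean log2 levels was 0.0023. The vehicle libraries of replicates 1 to 3 were at 17.43 to 47.84 CPM and those of replicates 4 to 6 at 1.352 to 3.788 CPM. The sign of the treatment difference turned between the sets of 1 h replicates, from -2.04 in replicates 1 to 3 (adjusted p = 0.426) to 2.12 in replicates 4 to 6 (adjusted p = 0.504). At 4 h the log2 fold change was -0.26 (SE 0.79, edgeR adjusted p = 0.929), and -0.28 without the libraries that stood apart (adjusted p = 0.924). The gene overlaps Gm17040 and Gm17041 on the other strand, and with a kit that does not mark strand their reads cannot be told apart.

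Cish, Socs2 and Igfbp1 differed most between mice of a group, apart from Igfbp1 with MitoCDNB at 1 h. The coefficient of variation of Cish was 63.9% to 112% over the 4 groups and exceeded that of at least 99.1% of the 11912 genes that averaged 1 CPM or more. For Socs2 it was 28.3% to 72.8%, above at least 92.9% of those genes. Igfbp1 had 96.7% to 172% in 3 groups but 12.1% with MitoCDNB at 1 h, where 55.6% of genes varied less. Ghr had 9.23% to 12.9% and Igf1 9.80% to 20.7%, and the median gene had 11.2% to 14.0%. Igfbp4, with 4.45% to 9.53%, was the least variable of the 10 in every group except vehicle at 4 h, where Stat5b had 7.91%.

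**Figure D3:**
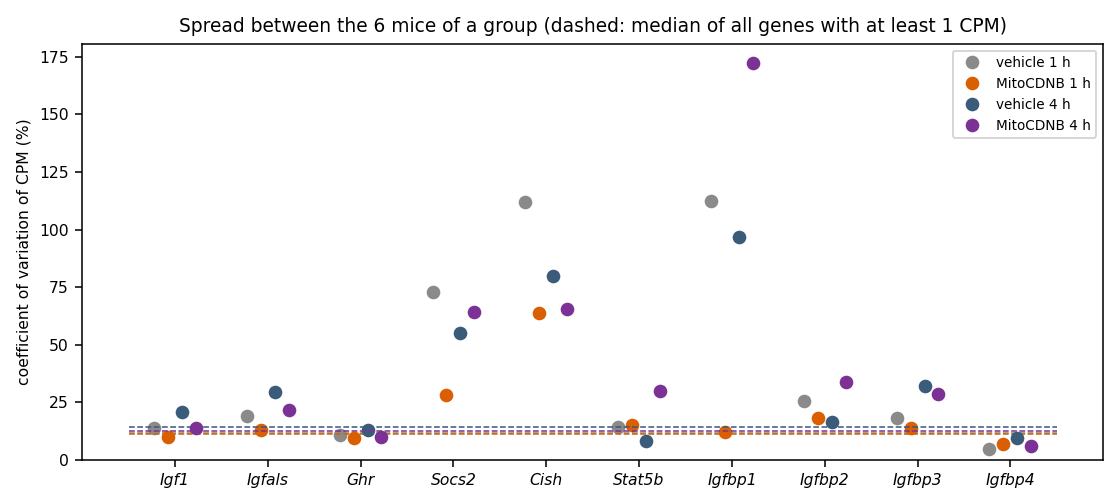
Coefficient of variation of CPM (percent, vertical axis) over the 6 libraries of a group, for each gene and group; dashed lines are the median of all genes that averaged 1 CPM or more. Cish, Socs2 and Igfbp1 lie far above the lines, except for Igfbp1 with MitoCDNB at 1 h at 12.1%.

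Socs2 and Cish were high and low in the same mice. Over the 24 libraries, the deviations of their log2 levels from the group means correlated with Pearson r = 0.723 (permutation p = 0.00065 within groups, 0.0292 after Benjamini-Hochberg adjustment over the 45 pairs of the 10 genes). Spearman rho was 0.672 (permutation p = 0.00188, adjusted 0.0846), so the rank measure did not pass. Without the 2 libraries farthest from the median of Socs2, r was 0.6. By group, r was 0.867 in vehicle at 1 h, 0.79 in vehicle at 4 h and 0.7 with MitoCDNB at 4 h, but 0.135 with MitoCDNB at 1 h, each over 6 libraries and given as a description. Whether the groups differ in this was not tested. This was 1 of 45 pairs that passed the adjusted threshold on Pearson r.

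**Figure D4:**
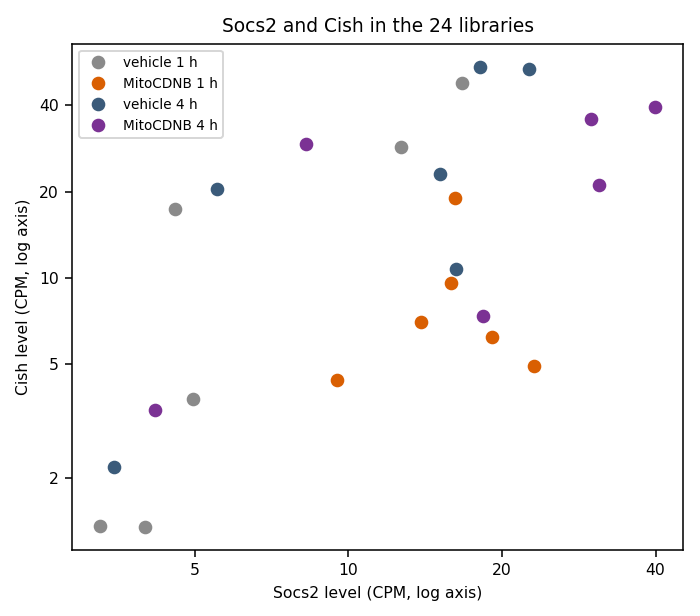
Cish against Socs2 level in the 24 libraries, in CPM on 2 log axes, coloured by group. Vehicle libraries spread from low values of both genes to high values of both, while the 6 MitoCDNB libraries at 1 h lie between 9.521 and 23.09 CPM of Socs2 and at 4.394 to 19.02 CPM of Cish.

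Igf1 encodes the circulating growth factor itself (chr10:87858265-87937042, plus strand, mm10). Its level in vehicle at 1 h ran from 201.4 to 302.6 CPM (median 263.5), and with MitoCDNB at 1 h from 260.9 to 348.1 (median 328.5). At 4 h vehicle ran from 161.5 to 310.8 (median 285.3) and MitoCDNB from 243.4 to 344.3 CPM (median 300.9). At 1 h 5 of 6 MitoCDNB libraries exceeded every vehicle library, and replicate 5, at 260.9 CPM, was the exception. For Igf1 the log2 fold change was 0.30 at 1 h (SE 0.13, unadjusted p = 0.0254, edgeR adjusted p = 0.193) and 0.17 at 4 h (SE 0.13, edgeR adjusted p = 0.592). Without the libraries that stood apart it was 0.26 at 4 h (adjusted p = 0.377). In the 1 h replicates 1 to 3 alone it was 0.51 (adjusted p = 0.201), against 0.10 in replicates 4 to 6 (adjusted p = 0.903). Between the vehicle groups it was 0.02 (SE 0.13, edgeR adjusted p = 0.960). Reads of the antisense gene Igf1os, which overlaps Igf1, cannot be told apart without strand.

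Igfals encodes the acid-labile subunit, which joins IGF1 and IGFBP3 in the large complex that keeps IGF1 in blood (chr17:24865997-24882010, plus strand, mm10). The STAT motif stood in windows of 2 of its annotated starts, shown because they and Cish were the matches of the axis. With the motif in capitals, 30 bases each are printed from chr17:24877598-24877627 and chr17:24878163-24878192 (plus strand, GRCm38.p6):
Igfals upstream start: gatctataatTTCTCAGAAaagaggctgag
Igfals downstream start: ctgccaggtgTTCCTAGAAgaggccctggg
Its level ran from 51.29 to 80.28 CPM in vehicle at 1 h (median 60.1) and from 60.19 to 84.46 with MitoCDNB at 1 h (median 69.42). At 4 h it ran from 33.67 to 91.64 CPM in vehicle (median 75.93) and from 44.7 to 88.77 with MitoCDNB (median 84.72). The groups overlapped at both times, and the lowest value of each 4 h group came from the libraries that stood apart. The log2 fold change was 0.16 at 1 h (SE 0.19, edgeR adjusted p = 0.770) and 0.16 at 4 h (SE 0.19, edgeR adjusted p = 0.767), or 0.14 at 4 h without those libraries (adjusted p = 0.659). Neither comparison over time passed.

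Igfbp1 gave the widest separation of the axis after MitoCDNB. The gene lies on chromosome 11 (chr11:7197782-7202546, plus strand, mm10), 3540 bases from Igfbp3, and its product binds IGF1 and limits its access to cells. The RefSeq window was searched on both strands for CAAAACA, a core of the insulin response element known from IGFBP1 promoters. It was found in 1 of the 14 windows of the axis, that of Igfbp1, and in 6.28% of all windows. The 240 bases at chr11:7197537-7197776 (plus strand, GRCm38.p6, from 250 to 11 bases before the start), shown because this gene had the largest fold change, hold it in capitals:
Igfbp1: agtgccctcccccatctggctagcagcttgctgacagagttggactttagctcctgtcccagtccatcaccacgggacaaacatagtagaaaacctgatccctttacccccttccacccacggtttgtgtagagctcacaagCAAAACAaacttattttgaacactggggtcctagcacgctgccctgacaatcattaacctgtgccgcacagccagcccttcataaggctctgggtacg
The forkhead letters GTAAACA were found in 1 of the 14 windows (Igfals) and 3.65% of all windows, and the glucocorticoid receptor half-site AGAACA in 2 of 14 (Igfbp2, Igfals) and 19.0% of all windows. These matches describe letters and say nothing on binding.

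In vehicle at 1 h Igfbp1 ran from 25.98 to 308.5 CPM with a median of 43.95. With MitoCDNB at 1 h it ran from 685.4 to 932.8 CPM with a median of 780.2. The groups did not overlap, as for 4.74% of all genes in this comparison, and vehicle replicates 1 and 2 lay above the other 4 vehicle libraries, at 308.5 and 146.1 CPM. The means were 99.6 ± 112 and 789 ± 95.3 CPM (SD, n = 6), a 7.92-fold ratio of means. The fitted log2 fold change was 2.98 (SE 0.94, 95% interval 1.03 to 4.94), and it missed the edgeR threshold (adjusted p = 0.0635, unadjusted p = 0.00464). An exact permutation test of the log2 CPM gave p = 0.00216 (two-sided, unadjusted), the smallest that 6 against 6 libraries allow. Groups of this size without overlap always give this p, so it adds nothing to the lack of overlap.

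Whether Igfbp1 passed at 1 h differed between fits. It passed when only the 1 h groups were fitted (log2 fold change 2.99, adjusted p = 0.019), with limma-voom and sample quality weights (3.84, adjusted p = 0.000154) and without vehicle replicate 1 (3.77, adjusted p = 0.0276). It also passed with edgeR when the replicate number was fitted as a block, a pairing that the labels do not name (3.70, adjusted p = 0.0163). DESeq2 gave no adjusted p for it. Replicates 1 to 3 at 1 h alone gave a log2 fold change of 2.29 (SE 1.43, adjusted p = 0.568), and replicates 4 to 6 gave 4.35 (SE 1.47, adjusted p = 0.200). Igfbp1 was higher with MitoCDNB in every fit that gave an adjusted p.

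**Figure D5:**
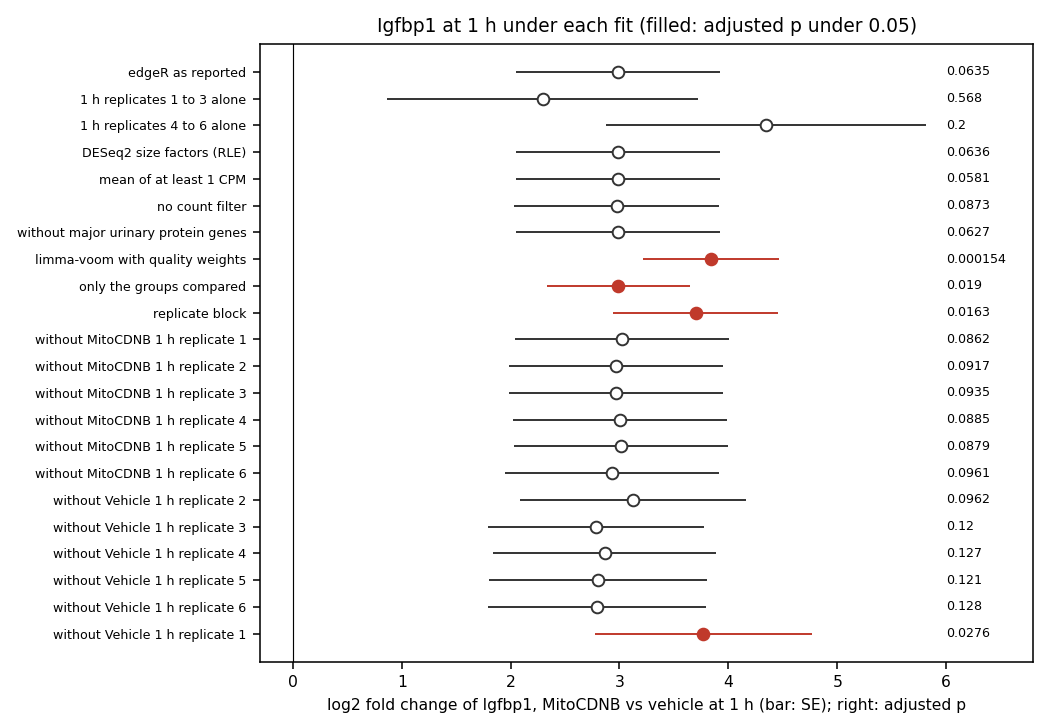
Log2 fold change of Igfbp1, MitoCDNB against vehicle at 1 h (horizontal axis, bar: SE), under each fit that gave an adjusted p, which is printed at the right; filled points passed 0.05. Estimates ran from 2.29 to 4.35, and 4 of the fits passed.

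At 4 h the Igfbp1 levels of the treatments overlapped. Vehicle ran from 6.801 to 101.4 CPM (median 25.99) and MitoCDNB from 7.729 to 239.4 CPM (median 11.37). MitoCDNB replicate 2, a library that stood apart, held the 239.4 CPM, while the other 5 were at or below 42.36 CPM. The log2 fold change was 0.41 (SE 0.88, edgeR adjusted p = 0.891), and it was -1.07 without the libraries that stood apart (adjusted p = 0.590). From 1 h to 4 h Igfbp1 fell by 3.88 on the log2 scale in the MitoCDNB groups (SE 0.98, edgeR adjusted p = 0.00507), with no overlap, as for 13.1% of all genes. Without the libraries that stood apart the log2 fold change of this fall was -5.61 (adjusted p = 0.000155). Between the vehicle groups the log2 fold change was -1.30 (SE 0.89, edgeR adjusted p = 0.458). The difference between the 2 MitoCDNB effects was -2.58 (SE 1.26, edgeR adjusted p = 0.303). Without MitoCDNB replicate 2 at 4 h it was -4.31 and passed (edgeR adjusted p = 0.0224). Without both libraries that stood apart it was -4.06 and passed (edgeR adjusted p = 0.0357). Leaving out replicate 2, the highest of its group, widens this difference by construction. With all libraries the difference passed with limma-voom (-4.84, adjusted p = 0.00202).

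Igfbp2 encodes a binding protein made by hepatocytes (chr1:72824503-72852474, plus strand, mm10). Its level ran from 163.6 to 360.8 CPM in vehicle at 1 h (median 262.7) and from 218.3 to 351.3 with MitoCDNB at 1 h (median 283.0). At 4 h it ran from 248.5 to 390.8 CPM in vehicle (median 293.6) and from 270.2 to 596.3 with MitoCDNB (median 310.4). The groups overlapped, and the highest value came from MitoCDNB replicate 2 at 4 h. For Igfbp2 the log2 fold change was 0.13 at 1 h (SE 0.19, edgeR adjusted p = 0.820) and 0.28 at 4 h (SE 0.19, edgeR adjusted p = 0.538), or 0.09 at 4 h without the libraries that stood apart (adjusted p = 0.881).

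Igfbp3, the main carrier of IGF1 in blood, had the smallest p of the axis at 4 h (chr11:7206086-7213923, minus strand, mm10). At 4 h vehicle ran from 7.419 to 16.98 CPM (median 11.14) and MitoCDNB from 13.5 to 26.4 CPM (median 16.41). At 1 h vehicle ran from 8.357 to 13.99 CPM (median 11.37) and MitoCDNB from 11.26 to 16.39 (median 15.01). All 6 MitoCDNB libraries lay above the vehicle mean at each time, but the ranges overlapped. The log2 fold change at 4 h was 0.64 (SE 0.19), which missed the edgeR threshold (adjusted p = 0.111) and passed with DESeq2 (adjusted p = 0.0402). Without the libraries that stood apart it was 0.61 (adjusted p = 0.160). At 1 h it was 0.35 (SE 0.19, edgeR adjusted p = 0.377). Liver cells other than hepatocytes make IGFBP3. Of 13 endothelial markers, 4 fell and 1 rose with MitoCDNB at 4 h, against 0.824% of all genes called. Their summed level was 360 to 418 CPM in vehicle and 345 to 402 with MitoCDNB. The 12 stellate markers summed to 180 to 285 CPM in vehicle (median 225) and 221 to 364 CPM with MitoCDNB (median 281). The 12 Kupffer markers summed to 254 to 733 CPM in vehicle (median 343) and 246 to 363 CPM with MitoCDNB (median 314). Of these 2 lists edgeR called 0 at 4 h, and 5 of each had an unadjusted p under 0.05, beside 14.3% of all genes. The median log2 fold change was 0.28 for the stellate and -0.37 for the Kupffer markers. DESeq2 called the stellate marker Ecm1, and limma-voom called 0 of either list. No marker of these lists was at 0 in any of the groups, and their part in the Igfbp3 values was not tested.

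Igfbp4, which encodes a binding protein that restrains IGF action in tissues, differed between the times and not detectably between the treatments (chr11:99041244-99054392, plus strand, mm10). Vehicle at 1 h ran from 720.5 to 819.6 CPM (median 771.6) and MitoCDNB at 1 h from 716.7 to 846.1 CPM (median 729.2). At 4 h vehicle ran from 819.6 to 1058 CPM (median 943.5) and MitoCDNB from 831.2 to 988.1 CPM (median 910.6). The treatments overlapped at both times, and the 4 h vehicle libraries did not overlap with the 1 h vehicle libraries, whose highest value met their lowest at 819.6 CPM after rounding. Between the vehicle groups 2.5% of all genes had no overlap. MitoCDNB differed from vehicle by a log2 fold change of -0.03 at 1 h (SE 0.07, 95% interval -0.16 to 0.11) and -0.02 at 4 h (SE 0.07, 95% interval -0.16 to 0.11), or -0.06 at 4 h without the libraries that stood apart (adjusted p = 0.764). From 1 h to 4 h Igfbp4 rose by 0.28 on the log2 scale in vehicle mice (SE 0.07, edgeR adjusted p = 0.0135) and by 0.28 in MitoCDNB mice (SE 0.07, edgeR adjusted p = 0.00244). The vehicle difference missed the threshold when only the vehicle groups were fitted (adjusted p = 0.0618) and with either set of 1 h replicates alone (adjusted p = 0.174 and 0.0662). The MitoCDNB difference missed it with the 1 h replicates 4 to 6 alone (adjusted p = 0.0917).

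Per kilobase of exon, in vehicle at 1 h, the order of levels was Igfbp4 (174 ± 7.75 CPM per kb, SD, n = 6), Igfbp2 (141 ± 36.2), Igfbp1 (65.3 ± 73.4), Ghr (35.1 ± 3.70), Igf1 (26.4 ± 3.68), Igfals (20.3 ± 3.80), Stat5b (11.1 ± 1.58), Igfbp3 (3.58 ± 0.642), Cish (2.61 ± 2.92) and Socs2 (0.807 ± 0.588). The ranges of mean ± SD overlapped between neighbours in this order, except between Ghr and Igf1, between Igfals and Stat5b, and between Stat5b and Igfbp3. With MitoCDNB at 1 h Igfbp1 stood first, at 517 ± 62.5 CPM per kb, above Igfbp4 at 171 ± 11.3. At 4 h Igfbp4 and Igfbp2 again stood first in both groups, with Igfbp1 at 26.4 ± 25.6 in vehicle and 35.0 ± 60.4 with MitoCDNB. Lengths are unions of GENCODE exons, which may differ from the transcripts that these livers made.

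The genes most like 3 members over the 24 libraries were sought among 11911 genes by the Pearson r of log2 levels. For Igfbp1 they were Irf2bp2 (r = 0.963), Trp53inp1 (r = 0.948) and Slc38a2 (r = 0.929). Trp53inp1 averaged 75.2 CPM in vehicle at 1 h, 387 with MitoCDNB at 1 h, 34.6 in vehicle at 4 h and 29.4 with MitoCDNB at 4 h. For Socs2 they were E2f8 (r = 0.787), Pex26 (r = 0.756) and Onecut1 (r = 0.752), and for Igf1 they were Isca2 (r = 0.761), Rapgef4 (r = 0.756) and St3gal4 (r = 0.746). These values describe likeness across groups and libraries that share their depth and treatment, and are given with no p.

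The other genes of the pathway were counted by list, and the counts stand beside 6.57% of all genes called at 1 h, 0.824% at 4 h, 4.07% for the difference between the effects and 5.44% between the vehicle groups. Unadjusted p values under 0.05 were held by 17.7% of all genes at 1 h and 14.3% at 4 h. Of 23 further IGF ligands, receptors, binding proteins and proteases, 11 could be tested, and edgeR called 0 at 1 h or 4 h, with 1 and 2 at an unadjusted p under 0.05, and 0 for the difference between the effects, with 1 so. DESeq2 called 2 at 4 h, Igf2 and Prlr, and 0 in the other 2, and limma-voom called 0 in all 3. The receptor Igf1r was at 2.35 ± 0.495 CPM in vehicle at 1 h (SD, n = 6) and differed with MitoCDNB by a log2 value of -0.02 (SE 0.21, edgeR adjusted p = 0.982). Igf2, a fetal growth factor that adult mouse liver hardly makes, had the smallest p of this list at 4 h, at 0.225 CPM in vehicle and 0.570 CPM with MitoCDNB (log2 fold change 1.33, SE 0.34, edgeR adjusted p = 0.0586). Of this list only the prolactin receptor Prlr changed between the vehicle groups, where it fell by 0.88 on the log2 scale (SE 0.24, edgeR adjusted p = 0.0341). Gh and Prl, the pituitary hormone genes, had 0 counts in all 24 libraries.

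Among 24 genes of growth hormone receptor signalling and its brakes, 2 rose with MitoCDNB at 1 h, a share near the 6.57% of all genes called. At 4 h 0 were called, 6 had an unadjusted p under 0.05 and DESeq2 and limma-voom called 1, Jak2. Irs2, an adaptor of insulin and growth hormone signalling, rose from 14.7 ± 12.6 to 45.0 ± 9.57 CPM (log2 fold change 1.61, SE 0.44, edgeR adjusted p = 0.0297). The phosphatase Ptpn2 rose from 7.77 to 9.97 CPM (log2 fold change 0.36, SE 0.09, edgeR adjusted p = 0.0088). The kinase Jak2, which relays the signal of the Ghr product, went from 10.5 ± 1.28 CPM in vehicle to 8.44 ± 0.792 with MitoCDNB at 4 h, a log2 fold change of -0.31 that missed the threshold (SE 0.09, edgeR adjusted p = 0.0899). The difference between the MitoCDNB effects at 4 h and 1 h passed for Jak2 (-0.47, edgeR adjusted p = 0.0306) and Ptpn2 (-0.48, edgeR adjusted p = 0.0230). Between the vehicle groups Socs3 rose by 1.96 on the log2 scale (SE 0.46, edgeR adjusted p = 0.0143) and Irs1 fell by 0.96 (SE 0.20, edgeR adjusted p = 0.00624).

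Of 23 genes that depend on growth hormone pulses in male liver, 0 were called at 1 h by edgeR or DESeq2 and 1, C6, by limma-voom, and 1 had an unadjusted edgeR p under 0.05. At 4 h 1 was called, the glucuronosyltransferase gene Ugt2b38, which fell by 0.40 on the log2 scale (SE 0.08, edgeR adjusted p = 0.0127). Ugt2b38 was also the 1 gene of the list whose MitoCDNB effects at 4 h and 1 h differed (-0.53, edgeR adjusted p = 0.00481), and 0 were called between the vehicle groups by any of the 3 tools, with 1 at an unadjusted edgeR p under 0.05. The list's median log2 fold change was 0.12 at 1 h and -0.18 at 4 h. Of 26 female-pattern genes, 17 could be tested and edgeR called 0 at either time, with 1 at 1 h and 4 at 4 h at an unadjusted p under 0.05. At 4 h DESeq2 called 2, Fmo2 and Tox, and limma-voom 1, Tox, and neither called any at 1 h, while the difference between the effects passed for Tox (1.51, edgeR adjusted p = 0.0237) and Atp6v0d2 (2.44, edgeR adjusted p = 0.0471). Trim24 of that list rose by 0.71 between the vehicle groups (SE 0.15, edgeR adjusted p = 0.00762).

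Among 18 genes that insulin represses or fasting raises, the class to which Igfbp1 belongs, 3 rose with MitoCDNB at 1 h. At that time 8 of the 18 had an unadjusted edgeR p under 0.05, and DESeq2 called 5 and limma-voom 6. At 4 h edgeR and DESeq2 called 0 and limma-voom 1, Cdkn1a, and 2 had an unadjusted edgeR p under 0.05. Foxo3, a forkhead transcription factor, rose from 17.9 to 63.2 CPM (log2 fold change 1.81, SE 0.16, edgeR adjusted p = 3.97e-08). The kinase Sik1 rose from 13.5 to 63.0 CPM (2.23, SE 0.36, edgeR adjusted p = 0.000375) and the pseudokinase Trib1 from 39.6 to 68.9 CPM (0.80, SE 0.23, edgeR adjusted p = 0.0343). The list's median log2 fold change at 1 h was 0.46. The effects at 4 h and 1 h differed for Foxo3 (-1.61, edgeR adjusted p = 7.91e-05) and Sik1 (-2.99, edgeR adjusted p = 0.00117). Between the vehicle groups Foxo1, Foxo3, Ppargc1a and Klf15 fell, 4 of 18. Beside these 1 h values, 7 tested cholangiocyte markers had a median log2 fold change of 0.83 with 2 higher, and the summed level of the 8 in the table was 28.5 to 37.3 CPM in vehicle and 34 to 65.7 with MitoCDNB. The 9 blood cell markers summed to 475 to 1210 CPM in vehicle (median 583) and 628 to 1160 CPM with MitoCDNB (median 1060). Of the 8 tested, edgeR called 0 at 1 h with 4 at an unadjusted p under 0.05, DESeq2 called S100a8 and S100a9, and limma-voom called these and Hbb-bs and Hbb-bt, all with a log2 fold change above 0 in the edgeR fit. None of either list was at 0, and their part in the Igfbp1 values was not tested.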

How the data were processed

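Polyadenylated RNA of 24 mouse livers was sequenced, 6 mice in each of 4 groups. Counts are as the authors deposited them, as whole numbers per gene symbol and library. The submitters' processing notes list HISAT2, DESeq2, Trim Galore and CASAVA 1.8.4, with build mm10. The sources used here name no counting tool, annotation or strand setting. The labels name the NEBNext Ultra RNA kit, which does not mark strand.

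The edgeR function filterByExpr (minimum count 10, minimum total 15) kept 13833 genes. After TMM scaling, a 4-group model was fitted to all libraries with edgeR 4.0.16 (R 4.3.3; quasi-likelihood F test, robust estimation), with Benjamini-Hochberg adjustment over all genes and calls at an adjusted p under 0.05. Mice are the replicates, and intervals for counts cover this spread only. Groups came from sample titles. Log2 levels used a prior count of 1, and correlations 100000 permutations within groups. Lengths are from GENCODE M21, and sequences from RefSeq GRCm38.p6.

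All 10 members are named. Of each other pathway list (further IGF genes, receptor signalling, male-liver, female-liver, and insulin-repressed or fasting genes) up to 4 called genes with the smallest p are named in the treatment comparisons, or the gene with the smallest p. Other names, among them Igf1r, Stat5a and those of the vehicle comparison, were chosen after their values were seen. The members and lists were chosen with earlier results of these data known. Alternatives were other size factors, filters, DESeq2 1.42.0, limma-voom with sample quality weights, which give less weight to more variable libraries (limma 3.58.1), the compared groups alone, a replicate block, sets of 1 h replicates, and omissions. The fit was tested on simulated data.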

Additional observations from a re-analysis of the deposited data

Results flagged for a closer look

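For each of the 10 genes and 4 groups, the highest and lowest of the 6 libraries was checked for a gap to its neighbour that was large against the range of the group by Dixon's 95% critical value. Of 40 groups, 5 held such a library, and chance gives about 1 in 20. At 4 h, 3 of the 5 came from MitoCDNB replicate 2, which also stood apart over all genes: Igfbp1 at 239.4 CPM, where the next library had 42.36, Stat5b at 60.98 CPM, where the next had 41.26, and Igfals at 44.7 CPM, the lowest, where the next had 78.32. In the same library Igf1, Socs2 and Cish were at the lowest level of their group and Igfbp2 at the highest. At 1 h, Igf1 was lowest in MitoCDNB replicate 5 at 260.9 CPM, where the next had 323.3, and Cish was highest in MitoCDNB replicate 4 at 19.02 CPM, where the next had 9.614.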

How the results depend on the processing

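Of 485 values of the 10 genes recomputed under other settings, 469 kept their side of the threshold, 11 newly passed and 5 no longer passed; of 720 from single omissions 716 kept it, 4 newly passed and 0 were lost. Among 44 uncalled results, 18 changed sign in some setting other than single omissions. Their reported sizes were at most 1.30 on the log2 scale. No called value changed sign. Counts of all genes called moved as follows. With the 1 h replicates 1 to 3 alone, 909 calls of MitoCDNB at 1 h became 244, 563 differences between effects 150, 753 vehicle calls over time 177 and 3940 MitoCDNB calls over time 2395. With replicates 4 to 6 alone the first 3 were 256, 275 and 309. These fits hold fewer samples. At 4 h, 114 calls became 348 with DESeq2, 227 with limma-voom, 18 with only the compared groups and 247 without the libraries that stood apart; the cause was not tested. Limma-voom gave 930 differences between effects, and only the compared groups 415 vehicle calls. Omissions of single libraries gave 720 to 838 calls at 1 h, 63 (without MitoCDNB replicate 3) to 412 (without vehicle replicate 1) at 4 h, 439 to 696 differences, 480 (without vehicle replicate 6 at 1 h) to 749 vehicle calls and 3457 to 3901 MitoCDNB calls over time.

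Same-numbered vehicle and MitoCDNB libraries of a time had neighbouring library numbers, in either order, while the labels name no pairing. They correlated by -0.207 to 0.256, which cannot exclude a shared block, and the main fit left the replicate numbers out. With the replicate block, 835, 84 and 504 genes were called at 1 h, at 4 h and for the difference. Igfbp1 (3.70, adjusted p = 0.0163) and Stat5b (0.43, adjusted p = 0.0331) then passed at 1 h. Of the 12 treated libraries, 5 correlated best with the vehicle library of their own number, out of 6 vehicle libraries of the same time. Whether this exceeds chance was not tested. DESeq2 gave no adjusted p for Igfbp1.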
